A study of Mus musculus with 10 samples.

Results

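Long noncoding RNAs (lncRNAs) are transcripts that are not translated into protein, and 707 of the 21195 m6A peaks mapped in cultured mouse hypothalamic neural progenitor cells (3.34%) lay in their genes. A peak is an interval in which RNA fragments carrying N6-methyladenosine (m6A) were enriched by immunoprecipitation (IP) with an antibody over input RNA. A peak was counted as an lncRNA peak if it overlapped the span of a RefSeq lncRNA gene on the mouse build GRCm38 by 50% of the shorter of the 2 and touched no base of a protein-coding span. Malat1, Neat1, Meg3, Rian, Mirg, H19, Airn and Kcnq1ot1 were left out, which removed 14 peaks. Of the other peaks, 19857 touched a protein-coding span and are called protein-coding peaks below, and 631 fell in neither class.

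Neural progenitor cells came from the hypothalamus of E14.5 Mettl14f/f mouse embryos, in which both copies of Mettl14 are floxed, and grew in 20 ng/ml FGF2 and 20 ng/ml EGF. Knockout cells received lenti-EGFP-Cre and control cells lenti-EGFP, so both genotypes carried the floxed alleles and a lentivirus, and EGFP-positive cells were sorted after 72 hours. Polyadenylated RNA was cut into fragments of about 80 nucleotides before IP, giving 4 Mettl14 knockout and 4 control IP libraries, 1 Mettl14 knockout input and 1 control input. The processed table gave 1 pooled column of IP reads and 1 of input reads, neither named for a genotype, so knockout and control could not be compared, values have no replicates, and any part of the knockout libraries in the pool is not known.

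m6A is written during transcription by a complex in which METTL3 carries the catalytic site and METTL14 helps hold the RNA. The preferred site is an adenosine followed by cytosine, within the consensus DRACH, of which GGAC is a common core. In mRNA the mark is known for clustering near stop codons and in long last exons, and it is read by YTH-domain proteins that affect the decay, splicing and export of RNA. lncRNAs lack a coding frame, and m6A on several of them is known from other cells.

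Sequences were available for stretches of RefSeq promoter windows (250 bases before to 50 after a gene's start) and for microRNA hairpins, on GRCm38.p6. The first pair is shown because Gm38476 carried a peak on each strand over almost the same bases, chr9:50775028-50775202 on the minus strand and chr9:50775019-50775193 on the plus strand, with 166 bases in common. The gene Gm38476 lies on the minus strand. The plus-strand peak is opposite to it, on the strand and promoter window of the coding gene Alg9. GGAC is in capitals, each sequence is read 5′ to 3′ on the strand of its peak, and the matches are a description of the letters, not mapped m6A sites.

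Gm38476 minus strand: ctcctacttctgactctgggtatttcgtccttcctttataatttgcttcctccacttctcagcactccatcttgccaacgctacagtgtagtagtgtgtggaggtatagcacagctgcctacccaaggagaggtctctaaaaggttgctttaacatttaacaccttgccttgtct
Gm38476 plus strand: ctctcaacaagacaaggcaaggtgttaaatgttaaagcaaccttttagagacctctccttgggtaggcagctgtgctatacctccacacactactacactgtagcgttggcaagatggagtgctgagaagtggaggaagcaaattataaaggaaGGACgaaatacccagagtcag

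The Gm38476 minus-strand sequence held 0 GGAC and the plus-strand sequence 1, while 45.8% of all RefSeq promoter windows, cut to their leading 175 bases, held GGAC. Its minus-strand peak had 193 IP and 97 input reads and its plus-strand peak 154 IP and 64 input reads, at enrichments of 2.67 and 2.88 by the authors' deposited table. Enrichment here is that table's log2 fold change, IP over input. Both strands were thus enriched to a similar degree. The Gm38476 peaks lay 23 and 32 bases from Alg9, which encodes an enzyme of protein N-glycosylation, and shared a deposited identifier with a coding peak.

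The next 3 are shown because their peaks fell on a promoter window, in part or whole. The Ino80dos peak lies 137 bases from Ino80d, which encodes a chromatin remodelling subunit. The stretch at chr1:63114490-63114789 on the plus strand is 37.5% of that peak. LOC115489019 at chr19:6141168-6141242 and Gm39087 at chr7:126625534-126625608, both on the minus strand, are whole peaks of 75 bases. They lie on the promoter windows of the coding genes Arl2 and Nupr1, on the strand of those genes, while the Ino80dos stretch lies on its own gene's window.

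Ino80dos: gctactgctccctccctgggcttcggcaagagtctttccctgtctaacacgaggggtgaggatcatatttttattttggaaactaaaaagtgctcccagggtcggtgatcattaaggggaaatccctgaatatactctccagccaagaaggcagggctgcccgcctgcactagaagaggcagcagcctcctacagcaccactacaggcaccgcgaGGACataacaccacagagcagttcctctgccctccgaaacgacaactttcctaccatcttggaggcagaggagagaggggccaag
LOC115489019: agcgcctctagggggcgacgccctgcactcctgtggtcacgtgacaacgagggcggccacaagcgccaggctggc
Gm39087: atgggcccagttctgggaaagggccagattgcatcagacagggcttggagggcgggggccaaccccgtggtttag

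The Ino80dos stretch held 1 GGAC (65.6% of whole windows held it), and the whole peak had 477 IP and 213 input reads, with an enrichment of 2.87 in the authors' deposited table. Neither 75-base peak held GGAC, which 23.3% of windows cut to that length did. LOC115489019 had 7960 IP and 3205 input reads and Gm39087 had 157 IP and 49 input reads, at enrichments of 2.01 and 2.71 by the authors' deposited table. Both lay within 64 bases of a coding gene (Arl2 and Nupr1) and shared a deposited identifier with a coding peak, and the Gm39087 peak lay opposite to its gene's strand.

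Markers of the labelled cells held peaks in part. Of the marker genes checked, 7 of 11 neural progenitor genes, 4 of 6 hypothalamic genes, 3 of 5 neuronal genes, 3 of 4 genes of the oligodendrocyte lineage and 0 of 7 genes of microglia, blood and vessel held a peak. The progenitor genes Vim, Hes5, Fabp7 and Msi1 were among those without one, and RNA without m6A gives no peak. Summed over peaks, the oligodendrocyte lineage genes had 516860 IP and 154316 input reads, against 51482 IP and 30932 input reads for the progenitor genes. Nearly all of the former came from Olig1 (284988 IP reads) and Olig2 (228230), while Pdgfra had 3642 IP reads and Sox10 held no peak. The hypothalamic genes had 178896 IP and 32322 input reads, with 157292 of the IP reads in Tbx3. The neuronal genes had 47729 IP and 35534 input reads. The part of these cell types in the lncRNA results was not tested, and in bulk RNA fewer cells of a type and less RNA per cell cannot be told apart.

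The lncRNA peaks were named for 470 genes, 317 with a single peak, 104 with 2, 29 with 3 and 20 with 4 or more. RefSeq lists 12731 lncRNA genes, of which 8146 are clear of protein-coding spans, and 362 of these (4.44%) held an lncRNA peak. Of the lncRNA peaks, 653 (92.4%) lay wholly inside the gene or covered it whole, and 50 overlapped more than 1 lncRNA gene by 50%. A further 1384 peaks overlapped an lncRNA gene by 50% and a protein-coding span as well, and were not counted. Peaks just inside the overlap limit were those of 5830408C22Rik (52.2% overlap), Gm19956 (56.6%) and Gm14066 (57.5%), and just outside were peaks of Gm6145 (47.8%), Gm14221 (46.2%) and Gm30827 (36.6%).

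The strand of the peak matched that of the gene for most peaks. Deposited peaks come with gene identifiers, and whether their strand was set from gene annotation is not known. The match is therefore no check of the assignment. RefSeq promoter entries gave a strand for the genes of 585 peaks, of which 523 lay on the gene's strand and 62 (10.6%), in 50 genes, on the opposite one. Median enrichment by the authors' deposited table was 3.18 for peaks opposite their gene, 3.46 for same-strand peaks and 3.58 for the 122 peaks whose gene's strand was not given. In addition, 117 peaks (16.5%) shared a deposited gene identifier with a peak in a protein-coding span, so their assignment to the lncRNA gene is uncertain.

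lncRNA peaks were more enriched than protein-coding peaks and had fewer reads. Median enrichment in the authors' deposited table was 3.44 for lncRNA peaks (quartiles 2.70 and 4.18), against 3.04 for protein-coding peaks (quartiles 2.35 and 3.80). Peaks in neither class had a median of 3.39 in the authors' deposited table, so the higher value was not limited to lncRNA genes. By the deposited counts, lncRNA peaks had medians of 398 IP and 167 input reads, against 909 IP and 492 input reads for protein-coding peaks.

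Of the lncRNA peaks, 451 (63.8%) lay above the median of all peaks, against 49.2% of protein-coding peaks. By an adjusted p under 0.05 with a log2 fold change above 1 in the authors' deposited table, 706 of 707 lncRNA peaks were called enriched, against 99.2% of all peaks, so the count sets lncRNA peaks apart very little. With limits of 0.01 and 2 on the same columns of the authors' deposited table, 655 were called, against 87.2% of all peaks. The single lncRNA peak not called lay in 9330020H09Rik.

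The deposited fold change is not the plain ratio of the deposited reads. It exceeded the log2 read ratio (pseudocount 0.5) by a median of 1.91 for lncRNA peaks and 1.88 for all peaks, by the authors' deposited table. The log2 read ratio itself had a median of 1.53 for lncRNA peaks and 1.22 for protein-coding peaks, so both measures put lncRNA peaks higher. Fewer IP than input reads were counted in 35 lncRNA peaks (4.95%), against 11.6% of protein-coding peaks.

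Enrichment was highest at the lowest input depth in both classes, and lncRNA peaks were shallower. Input reads are also the denominator of the enrichment, so bins of low input favour high values by construction. Under 50 input reads were counted in 181 lncRNA peaks (25.6%), against 10.9% of protein-coding peaks. At matched input depth the lncRNA median stayed higher in each of the 4 bins of the authors' deposited table, by 0.26 below 50 reads, 0.40 from 50 to under 200, 0.31 from 200 to under 1000 and 0.20 from 1000 reads. These bins held 181, 194, 196 and 136 lncRNA peaks. Depth within a bin may still differ, and peaks are not replicates, so no test was made of these differences.

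**Figure D1:**
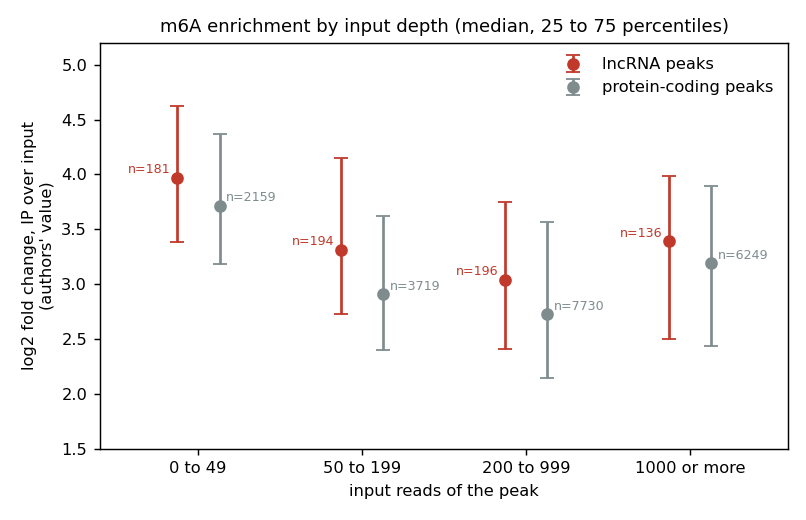
Median log2 enrichment, IP over input (authors' value, y axis) against input reads per peak in 4 bins (x axis) for lncRNA peaks (red) and protein-coding peaks (grey); bars span the 25th to 75th percentiles of peaks. The red median is above the grey one in each bin, 3.97 against 3.71 in the shallowest and 3.39 against 3.19 in the deepest.

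lncRNA peaks were also narrower, with a median width of 625 bases, against 932 for protein-coding peaks, and 423 (59.8%) spanned at most 1000 bases, against 51.3%. By width the lncRNA median exceeded the protein-coding one in the authors' deposited table by 0.52 up to 200 bases, 0.50 above that up to 1000, 0.32 above that up to 10000 and 0.36 beyond. Wide intervals include introns, since each peak was given as 1 block, and 101 lncRNA peaks (14.3%) spanned over 10000 bases. Across chromosomes the share of peaks that lay in lncRNA genes ran from 1.78% on chromosome 9 (21 peaks) to 6.24% on chromosome 13 (54 peaks).

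A few genes held much of the signal. Sox2ot, an lncRNA gene that contains the neural stem cell factor gene Sox2 within its span, had 346895 IP and 63946 input reads over 5 peaks, which was 18.9% of the IP reads of all lncRNA peaks. A130051J06Rik followed with 90040 IP and 22827 input reads, then 1500011B03Rik with 41912 and 6667, B230323A14Rik with 37545 and 9778, and AI197445 with 31235 and 18199. A930004D18Rik, Gm16124, Tug1, 4930586N03Rik and 1500004A13Rik had between 24185 and 31162 IP reads each. These 10 genes held 37.3% of the IP reads.

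In 3 of these genes the reads lay in a single short peak at 1 end of the span. B230323A14Rik had its reads in 1 peak of 100 bases (3.84), 4930586N03Rik in 1 of 125 bases (4.57) and Gm16124 in 1 of 266 bases (3.21), by the authors' deposited table. All 3 ended within 100 bases of the 3′ end of the span as read on the strand of the peak, and RefSeq promoter entries gave a gene strand only for Gm16124. The deepest A130051J06Rik peak, 1994 bases at chr15:95788156-95790149, had 89665 IP and 22750 input reads and 3.87 in the authors' deposited table, and its upstream edge lay on a promoter window of the gene, for which RefSeq gives several starts. AI197445 had a peak of 100 bases (31235 IP, 18199 input reads, 2.67 in the authors' deposited table) in the 5′ part of its span.

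The Sox2ot total rests on 2 neighbouring plus-strand peaks with almost equal counts. The peak at chr3:34573844-34611835 had 172759 IP and 31798 input reads and the one at chr3:34611886-34630206 had 172727 IP and 31737 input reads, with enrichments of 4.49 and 4.48 in the authors' deposited table. They differed by 32 IP and 61 input reads, and the pooled counts cannot tell whether the same reads were counted in both. The other 3 Sox2ot peaks had 80 to 1036 IP reads and enrichments of 2.37 to 4.43 in the authors' deposited table.

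Among lncRNA peaks with at least 50 input reads, the most enriched was in Gm33782 at chr10:96319601-96320075, 274083 bases from the nearest coding gene. It had 9841 IP and 1093 input reads, a ratio of 9.0 (95% Clopper-Pearson interval 8.46 to 9.59), and an enrichment of 5.71 in the authors' deposited table. 2900093K20Rik followed with 2380 IP and 268 input reads and 5.65 in the authors' deposited table, 725 bases from Oser1. Intervals given with ratios cover counting error only; without molecular identifiers, PCR copies are counted as separate reads.

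The other 8 of the 10 highest peaks had enrichments of 5.08 to 5.33 in the authors' deposited table and lay in Gm32061, AI504432, 1110015O18Rik, 9330188P03Rik, Gm35722, Tug1, 1500004A13Rik and 2810429I04Rik. AI504432 (10522 IP, 1762 input reads), Tug1 (10787 and 1947) and 2810429I04Rik (10736 and 1644) were the deepest of these. Thus 5 of the 10 had at least 2380 IP reads, and the other 5 had 439 to 1451.

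Below 50 input reads, the highest values were those of Lockd (6.58), 4933402J15Rik (6.39), 2810408I11Rik (6.35), Cep83os (6.12) and 2810454H06Rik (6.10), as enrichments in the authors' deposited table. Lockd, transcribed near the cell-cycle inhibitor gene Cdkn1b, had 369 IP and 15 input reads, a ratio of 24.6 (14.7 to 44.4). The other Lockd peak, opposite to the gene's strand, had 228 IP and 114 input reads and 2.76 in the authors' deposited table. Cep83os had 36 and 3, a ratio of 12.0 (3.79 to 60.9). The intervals of all 5 ratios overlap, so their order cannot be told.

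All 5 lowest peaks lay within 5000 bases of a protein-coding gene. 9330020H09Rik, 426 bases from Ccnt1, had 4808 IP and 8102 input reads, a ratio of 0.593 (0.573 to 0.615), and an enrichment of 0.78 in the authors' deposited table. Gm16010 (84 IP, 65 input reads), Pantr1 (226 and 347), Six3os1 (168 and 121) and 1110018N20Rik (397 and 557) had 1.09, 1.11, 1.16 and 1.23 by the authors' deposited table. Of the 5, 3 had fewer IP than input reads.

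Genes with several peaks varied along their length. Gm16010 had 4 peaks whose enrichments in the authors' deposited table were 1.09, 2.05, 2.10 and 4.03, with the highest in the peak nearest the gene's 3′ end, which also had the most reads (5618 IP, 1730 input). Tug1, an lncRNA known for roles in retina and in spermatogenesis in mouse, had 4 peaks of 3.98, 4.04, 4.64 and 5.18 in the authors' deposited table, all above the median of lncRNA peaks. The Tug1 peak of 5.18 lay 1405 bases from Morc2a and shared a deposited identifier with a coding peak, so its assignment is uncertain. A230057D06Rik ran from 3.11 to 5.81 over 5 peaks and 4833422C13Rik from 2.96 to 5.51 over 4, in the authors' deposited table. Of the 20 genes with 4 or more peaks, Nkx2-2os (5 peaks, 2.78 to 3.47), C130071C03Rik (4 peaks, 2.90 to 3.74) and 3830408C21Rik (5 peaks, 2.63 to 3.72) had the narrowest ranges in the authors' deposited table.

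The other genes with 4 or 5 peaks each ranged over more than 1 on the log2 scale. BC037032 (443 IP, 143 input reads over its peaks) ran from 3.04 to 5.06, BC106179 (669 and 166) from 3.08 to 4.47 and 5330413P13Rik (1321 and 516) from 1.94 to 4.74, by the authors' deposited table. F730043M19Rik (8159 and 1850) ran from 2.57 to 4.36, 6030407O03Rik (2623 and 1759) from 2.52 to 4.19 and A730017L22Rik (870 and 681) from 1.92 to 3.40, by the authors' deposited table. A830082K12Rik, beside the neural nuclear receptor gene Nr2f1, had 4.58 in a peak 1009 bases from that gene and 1.74 to 2.46 in its other 3, by the authors' deposited table. Of these, the peak at chr13:78199165-78199464 lay nearer still to Nr2f1 and had 2.16 in the authors' deposited table. 9330020H09Rik stayed at or below 2.70 in all 4 by the authors' deposited table.

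1500004A13Rik held 12 peaks, the most of any gene. On its own (minus) strand 6 peaks summed to 18752 IP and 4652 input reads, with enrichments of 2.44 to 5.15 in the authors' deposited table. On the plus strand 6 more summed to 5433 IP and 2476 input reads and ran from 2.05 to 4.50 in the authors' deposited table. A plus-strand peak at chr3:88817114-88817563 and a minus-strand peak at chr3:88825286-88830193 had the same counts, 1451 IP and 167 input reads, but enrichments of 4.50 and 5.15 in the authors' deposited table.

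**Figure D2:**
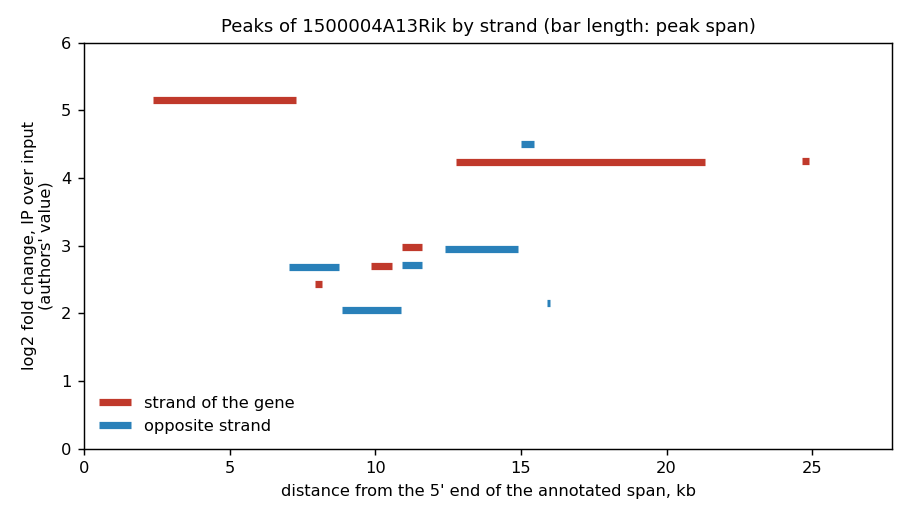
Peaks of 1500004A13Rik by distance from the 5′ end of its annotated span in kb (x axis) and log2 enrichment, IP over input (authors' value, y axis), with bar length for the width of the peak. The 6 peaks on the gene's strand (red) and the 6 on the opposite strand (blue) interleave over the same stretch.

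Peaks on both strands were found in 34 genes, and 105 lncRNA peaks (14.9%) overlapped an opposite-strand peak, close to the 14.7% of protein-coding peaks. In 10 of them the 2 intervals matched by at least 80% of the longer, which made 5 pairs in 1500004A13Rik, A330023F24Rik, BC106179 (2 pairs) and Gm38476. The IP reads of the 2 strands differed by a median of 5.07-fold in these pairs. Such pairs were as common among protein-coding peaks (1.34%, against 1.41% of lncRNA peaks).

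Many lncRNA peaks lay close to a coding gene. The nearest protein-coding span was a median of 8.60 kb away, 149 peaks (21.1%) lay within 1000 bases of one, 283 within 5000 bases, and 91 over 100 kb away. By the authors' deposited table, median enrichment was 3.22 within 5000 bases and 3.61 for the 424 peaks beyond. Of the 283 near peaks, 165 (58.3%) lay head to head with the coding gene by the strand of the peak, 102 of them within 1000 bases, an arrangement known from bidirectional promoters.

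Medians in the authors' deposited table were 3.26 for head-to-head peaks, 3.21 for 31 tail-to-tail peaks, 2.89 for 28 same-strand peaks upstream of the coding gene and 3.40 for 13 same-strand peaks downstream. A further 46 had a neighbour whose strand was not given (3.46 in the authors' deposited table). Among head-to-head peaks, 37 shared an identifier with a coding peak. On chromosomes other than 18, peaks on the window of their own gene's start, and on the gene's strand, numbered 59. The 15 of these that spanned at most 1000 bases had a median of 2.67 in the authors' deposited table, against 3.34 for all 423 lncRNA peaks of that width. Those 423 include chromosome 18, whose 18 lncRNA peaks were left out of the window count.

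**Figure D3:**
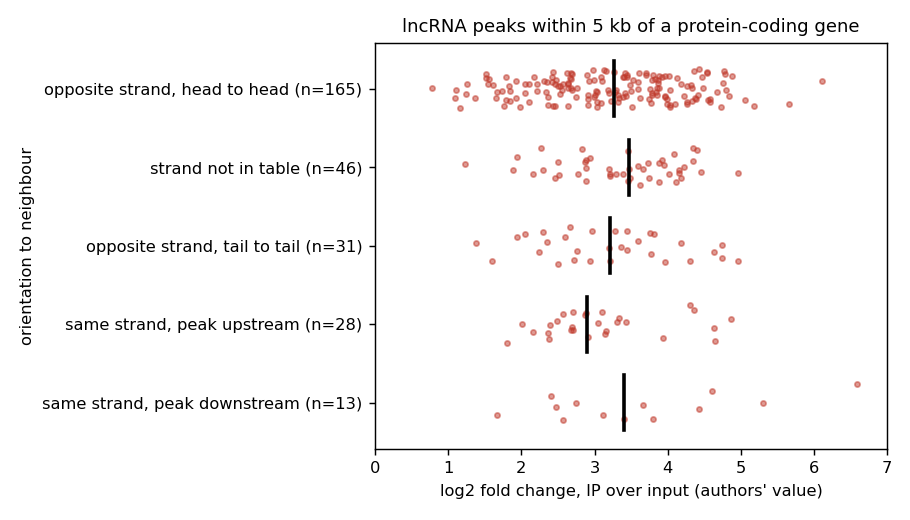
Log2 enrichment, IP over input (authors' value, x axis) of the 283 lncRNA peaks within 5 kb of a protein-coding gene, by orientation (rows); each point is a peak and the bar is the median. Head-to-head peaks are the largest group, with a median of 3.26, and all groups overlap.

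Along the gene, peaks gathered at the 3′ end, less so than in coding genes. Of 431 same-strand lncRNA peaks that covered under 50% of their gene, 23.2% had their midpoint in the last of 10 equal parts of the span and 11.8% in the first, with 4.18% in the fifth. For coding genes, 12401 same-strand peaks that covered under 50% of the span were used, if they lay wholly inside a single coding gene. Of these, 40.7% fell in the last part and 8.10% in the first. lncRNA peaks could run past the gene's end or overlap several lncRNA genes, so the choice of peaks was not identical. Median enrichment did not rise steadily along the span: by the authors' deposited table it was 2.90, 3.46, 3.64, 3.46, 3.66, 3.90, 3.08, 3.35, 3.39 and 3.66 over the 10 parts from 5′ to 3′. RefSeq gives some genes several starts, spans differ (median 13.9 kb for these lncRNA peaks, 42.0 kb for coding ones) and introns are included, so these are not positions in the mature transcript.

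**Figure D4:**
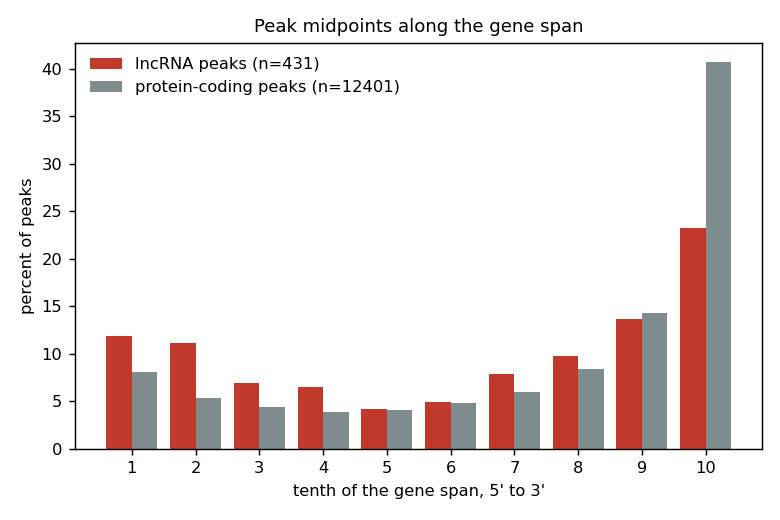
Percent of peaks (y axis) in each of 10 equal parts of the gene span from 5′ to 3′ (x axis) for 431 lncRNA peaks (red) and 12401 protein-coding peaks (grey). The last part has the tallest bar in both, at 23.2% and 40.7%.

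By type of gene symbol, 313 peaks lay in 197 Rik genes (median 3.40), 253 in 192 Gm genes (3.60), 51 in 29 genes whose symbols end in os, ot or as (3.21), 17 in 10 microRNA or snoRNA host genes (3.66), 69 in 39 other named genes (3.45) and 4 in LOC genes, with median enrichments from the authors' deposited table. Rik and Gm symbols mark genes found by cDNA sequencing and by gene prediction.

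Of the X-inactivation genes, Jpx and Ftx each held 1 peak, and Xist and Firre held none. Jpx, which activates Xist in mouse, had 934 IP and 157 input reads, a ratio of 5.95 (5.02 to 7.09), and an enrichment of 4.70 in the authors' deposited table. Ftx, which acts at the same locus and hosts microRNAs, had 271 IP and 200 input reads and 3.20 in the authors' deposited table. Tsix was not listed as an lncRNA gene. For a gene without a peak, absence of RNA and absence of m6A cannot be told apart.

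Small nucleolar RNA hosts, whose introns carry snoRNAs, held peaks in 5 of 21 genes. Snhg14, a long transcript of the imprinted Prader-Willi region, had 1008 IP and 356 input reads and an enrichment of 4.46 in the authors' deposited table. Snhg18 had 909 IP and 188 input reads (4.10), Snhg11 had 256 and 124 (3.33), Snhg17 had 109 and 75 (2.40) and Snhg15 had 7615 and 6608 (2.38), as given in the authors' deposited table. Snhg15 thus had the most reads and the lowest ratio, 1.15 (1.11 to 1.19). Gas5 had a peak that touched a protein-coding span, and 15 hosts had none.

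**Figure D5:**
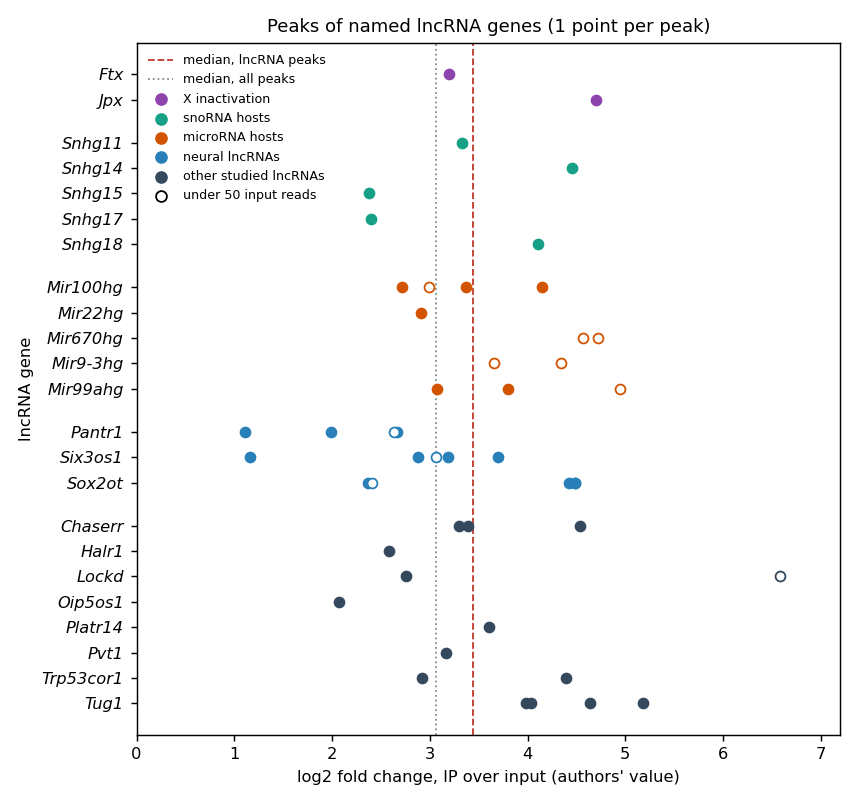
Log2 enrichment, IP over input (authors' value, x axis) for peaks of named lncRNA genes (rows), with 1 point per peak, colour by gene list and open circles for under 50 input reads; lines mark the medians of lncRNA and of all peaks. Pantr1 lies left of both lines, and the Tug1 peaks lie right of them.

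MicroRNA host genes, whose transcripts carry hairpins cut into microRNAs, held 12 peaks in 5 of 14 genes. Mir100hg, host of miR-100 and miR-125b, had 4 peaks from 2.72 (2066 IP, 1107 input reads) to 4.15 (294 and 117) in the authors' deposited table. Mir99ahg had 3, at 3.07, 3.80 and 4.94 by the authors' deposited table, the last with 121 IP and 27 input reads. Mir22hg, host of miR-22, had 1 (1707 IP, 800 input reads, 2.91 in the authors' deposited table). Mir670hg and Mir9-3hg had 2 peaks each, and all 4 had under 50 input reads.

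In all, 18 lncRNA genes with a peak held 32 hairpins, but only 4 peaks touched a hairpin and 8, these included, lay within 300 bases of one. For each hairpin within 300 bases of a peak, 1 mature microRNA is shown as RefSeq gives it on GRCm38.p6, with the seed, bases 2 to 8, which pairs with target mRNAs, in capitals; miR-29b-3p and miR-29c-3p have the same seed. miR-9-5p is also made from Mir9-3 of Mir9-3hg, which lies 25786 bases from the nearest peak.

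mmu-miR-9-5p (C130071C03Rik, chr13:83738821-83738843, plus strand): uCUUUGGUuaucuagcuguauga
mmu-miR-9b-3p (C130071C03Rik, chr13:83738821-83738841, minus strand): aUACAGCUagauaaccaaaga
mmu-miR-29b-3p (A330023F24Rik, chr1:195037091-195037113, plus strand): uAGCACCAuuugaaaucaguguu
mmu-miR-29c-3p (A330023F24Rik, chr1:195037600-195037621, plus strand): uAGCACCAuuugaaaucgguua
mmu-miR-101a-3p (E130102H24Rik, chr4:101346957-101346977, minus strand): uACAGUACugugauaacugaa
mmu-miR-1897-3p (Sox2ot, chr3:34638511-34638532, plus strand): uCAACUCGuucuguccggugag
mmu-miR-6363 (Dubr, chr16:50727204-50727225, plus strand): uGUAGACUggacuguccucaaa

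C130071C03Rik, host of a miR-9 gene, a regulator of neural progenitor proliferation and differentiation, had a plus-strand peak that contained the Mir9-2 hairpin (1790 IP, 769 input reads, 3.74 in the authors' deposited table) and a minus-strand peak 281 bases from it (989 and 251, 3.69). A330023F24Rik had a peak on each strand over the same interval, chr1:195037151-195037400, between Mir29b-2 (31 bases away) and Mir29c (147 bases). The plus-strand peak, on the strand of the gene and hairpins, had 193 IP and 53 input reads, and the minus-strand peak 1584 IP and 564 input reads, at 3.77 and 3.40 by the authors' deposited table. The 125-base Sox2ot peak that overlapped the Mir1897 hairpin by 42 bases had 293 IP and 191 input reads and 2.37 in the authors' deposited table, lowest of the Sox2ot peaks. E130102H24Rik had a peak 15 bases from Mir101a (294 IP, 91 input reads, 3.53 in the authors' deposited table).

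In Dubr a plus-strand peak at chr16:50727132-50727245 coincided with the Mir6363 hairpin, opposite to the strand of Dubr. It had 102 IP and 12 input reads and an enrichment of 4.95 in the authors' deposited table, against 504 IP and 398 input reads (2.59) for the minus-strand peak that spans it. Its 114 bases held 1 GGAC, in capitals, and 24.5% of all hairpins held GGAC.

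Dubr, hairpin of Mir6363: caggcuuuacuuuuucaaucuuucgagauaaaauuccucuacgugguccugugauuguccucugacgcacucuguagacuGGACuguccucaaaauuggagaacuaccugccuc

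Neural lncRNAs held 14 peaks in 3 of 16 genes, with a median of 2.77 in the authors' deposited table, below that of all lncRNA peaks. Besides Sox2ot, these were Six3os1, named for the forebrain and eye homeobox gene Six3, and Pantr1, near the neural transcription factor gene Pou3f3. The 3 genes differed, with gene medians of 4.43 for Sox2ot, 3.07 for Six3os1 and 2.31 for Pantr1 in the authors' deposited table. The median of 2.77 is thus not a level common to neural lncRNAs, and only 8 of the 16 genes are clear of protein-coding spans. Six3os1 had 4 peaks on its strand (1.16, 3.07, 3.18 and 3.70) and 1 of 88 bases on the opposite strand (2.88), in the authors' deposited table. Pantr1 had 4 peaks of 1.11 to 2.67 in the authors' deposited table, and its deepest had 1955 IP and 2101 input reads. Peg13, Otx2os1, Vax2os and Sox1ot had peaks that touched protein-coding spans, and Miat, Rmst, Dlx6os1 and 6 others had none.

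Other studied lncRNAs held 17 peaks in 9 of 36 genes, with a median of 3.98 in the authors' deposited table. The 2 Mir670hg peaks are counted here and also among the microRNA hosts. Chaserr, which lowers the expression of its neighbour Chd2 in mouse, had 3 peaks of 3.29, 3.39 and 4.53 by the authors' deposited table, the last with 1162 IP and 387 input reads and nearest the 5′ end. Trp53cor1, a p53 target beside Cdkn1a, had 2 of 2.92 (2896 IP, 1121 input reads) and 4.39 (990 and 163) in the authors' deposited table. Pvt1 (3.16), Platr14 (3.60), Halr1 (2.58) and Oip5os1 (2.07) had 1 each in the authors' deposited table. Oip5os1, known for promoting the decay of miR-7, had 356 IP and 375 input reads. Norad was overlapped by a peak that did not count as an lncRNA peak, and 26 genes of this list had none.

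Genes with symbols ending in os, ot or as (with or without a digit), most of them named for a coding gene on the opposite strand, held 51 peaks in 29 of 220 genes, of which only 50 are clear of protein-coding spans. The endings also take in Sox2ot, Sox1ot and Gas5, whose symbols do not stand for an opposite strand, and without these (left out after the values were seen) 46 peaks in 28 genes were left (median 3.19 in the authors' deposited table). Their values in the authors' deposited table ran from 1.16 in Six3os1 to 6.12 in Cep83os. Junos, near the transcription factor gene Jun, had 1044 IP and 166 input reads (4.78 in the authors' deposited table), and Stamos had peaks of 4.77 (614 and 174) and 1.67 (2691 and 2049), far apart within 1 gene. Prox1os and Nkx2-2os, named for the homeobox genes Prox1 and Nkx2-2, had their deepest peaks at 3.68 (6167 IP, 1705 input reads) and 2.98 (4082 and 2046) in the authors' deposited table.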

How the data were processed

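Polyadenylated RNA was profiled by m6A-seq in 10 libraries. Per the submitters' processing notes, bcl2fastq 2.17.1.14, Trimmomatic 0.32 and STAR 2.5.2a were used and the builds GRCm38.p6 and GRCh38.p13 are named; no source used here gives the peak caller or how libraries were pooled. Deposited read counts are whole numbers per peak, 1 IP and 1 input column, per the file headers. They may be sums or rounded means over libraries, are taken as counts in the intervals, and add up to 72308582 IP and 26633390 input reads over all peaks. The log2 fold change, the p-value, the adjusted p-value and the score of each peak are the authors' own values, and the deposited score equals minus log2 of the adjusted p-value.

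Peaks were assigned to RefSeq GRCm38.p6 gene spans with Python 3.11.15 and pandas 2.3.3, and named for the gene with the largest overlap; 27 ties went first to a gene on the strand of the peak, a rule set after names had been seen. Strands and sequences came from the RefSeq promoter and microRNA tables. Ratios of IP to input reads have exact Clopper-Pearson 95% intervals (SciPy 1.17.1) that cover counting error only. The assignment was tested on simulated data. The members and gene lists were chosen with earlier results of these data known. Named were the 10 highest peaks with at least 50 input reads, the 5 highest below, the 5 lowest, the 10 genes with most IP reads, genes with 4 or more peaks, fixed lists and the peaks nearest the overlap limit. Some further peaks (at hairpins, on both strands, with equal counts, with sequence) were chosen after their values were seen. The planned genotype comparison and motif search needed library columns and a genome and were not run.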

Additional observations from a re-analysis of the deposited data

How the results depend on the processing

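The median log2 fold change of lncRNA peaks (3.44) was 3.61 without peaks within 5000 bases of a protein-coding span, which left 424 peaks, and 3.26 with at least 50 input reads. Without the near peaks the difference from protein-coding peaks was 0.57, and with at least 50 input reads it was 0.33, against 0.40 as reported. The cause of either change was not tested. Under the 7 other alternatives (any overlap, 80% overlap, under 50% in a coding span, at most 10000 bases, no shared identifier, and, chosen after seeing the data, without opposite-strand peaks and without Sox2ot) the median was 3.41 to 3.47. Without Sox2ot, 1486655 IP reads of 1833550 were left. A pseudocount of 5 gave a median log2 read ratio of 1.45, against 1.53. Calls numbered 655 under the stricter limits and 707 by adjusted p alone. Counting only peaks in a single lncRNA gene left 2 of 4 LOC peaks. No paired analysis was possible because the pooled columns name no library; for the same reason no replicate could be left out and the genotype comparison was not run.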
